A study of Mus musculus with 6 samples.

Results

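Thalamic neuron marker genes were followed in RNA of the dissected mouse hippocampus. The members were 30 genes chosen by name, with earlier results of these data known. Of these, 29 were found among the 15423 genes of the count table, and all 29 passed the filter on low counts. Irx5 was not analysed here. Hippocampal RNA was sequenced in 3 control (CTR) mice, numbered 1, 2 and 5, and 3 "Short Day" (SD) mice, numbered 2, 5 and 6. All 6 mice were C57BL/6J. CTR mice lived from conception under 12 h light and 12 h dark. SD mice lived from conception under a shortened day of 8 h light and 8 h dark, up to postnatal day 42. Age at collection and litter were not stated, so p-values measure the spread between these mice. The methods of the study give no time of day at which tissue for RNA was collected, so whether it differed between the groups is not known. The methods of the study describe hippocampal tissue, whereas the labels' extraction protocol is worded for cultured material.

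The thalamus lies directly beneath the hippocampus and relays sensory and motor signals to the cortex. Its relay neurons release glutamate, load it into vesicles with the transporter VGLUT2, and keep an identity program of transcription factors into adult life, with TCF7L2 at its head. The adjoining habenula also arises from the caudal thalamic territory and shares several of these factors. The reticular nucleus next to the thalamus is made of inhibitory neurons. None of these cells belongs to the hippocampus, although several members, such as Calb2 and Zic1, are also expressed in other brain cells. In bulk RNA, fewer cells of a type and less RNA per cell cannot be told apart.

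Total counts ranged from 23300710 to 30035148 in CTR mice and from 25755316 to 34447082 in SD mice. Levels are given as CPM, counts scaled to a common library size with TMM factors (edgeR's cpm function), and log2 fold changes are SD relative to CTR. Calls used the cutoffs of the study on edgeR's quasi-likelihood test, an unadjusted p of 0.05 or less together with a log2 fold change of 0.58 or more in either direction. The 15 tested genes of hippocampal principal neurons, the labelled tissue, summed to between 1268 and 1347 CPM in CTR mice and between 1291 and 1394 CPM in SD mice, and none was called. CTR mouse 5 alone carried female transcripts (30044 counts of Xist, the X-inactivation RNA, against 0 to 20 elsewhere), and ribosomal precursor RNA took 1.84% of the counts of CTR mouse 1 and 0.164% to 0.231% elsewhere. CTR mouse 2 stood apart in the thalamic genes and CTR mouse 5 in genes of the habenula.

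Because the mice differed in their light cycle, the RefSeq promoter windows of the members (GRCm38.p6, 250 bases before to 50 bases after a start site) were searched on both strands for the E-box CACGTG, the letters that the clock factors CLOCK and BMAL1 bind. The other motifs searched were CTTTGAT or CTTTGAA, letters bound by TCF7L2 and LEF1, and TAATTA, a core of homeodomain factors. Windows were found for 26 of the 30 members, 36 windows in all. The E-box was in 5 of these 36 windows (13.9%) and in 7.15% of all 32851 promoter windows. The matches are printed with 20 bases on each side, 5′ to 3′ on the strand of the gene, with the motif in capitals, and no motif overlapped another.
Gbx2 (chr1:89931225-89931270, minus strand): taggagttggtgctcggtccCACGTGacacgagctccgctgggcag
Lef1 (chr3:131156195-131156240, plus strand): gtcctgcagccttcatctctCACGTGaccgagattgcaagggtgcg
Prkcd (chr14:30626289-30626334, minus strand): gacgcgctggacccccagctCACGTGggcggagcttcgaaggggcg
Slitrk6 (chr14:110755332-110755377, minus strand): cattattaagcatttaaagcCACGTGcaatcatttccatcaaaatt
Zic1 (chr9:91365841-91365886, minus strand): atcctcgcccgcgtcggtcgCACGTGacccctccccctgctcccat
The TCF/LEF letters were in 1 of the 36 windows (2.78%, against 8.65% of all windows), that of Zic4, where the letters stand on the other strand and read TTCAAAG, and the homeodomain letters in 2 (5.56%, against 5.29%), those of Slc17a6 and Synpo2.
Zic4 (chr9:91368973-91369019, plus strand): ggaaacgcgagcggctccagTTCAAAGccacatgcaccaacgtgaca
Slc17a6 (chr7:51624536-51624581, plus strand): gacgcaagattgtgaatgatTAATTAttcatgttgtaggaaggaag
Synpo2 (chr3:123236348-123236393, minus strand): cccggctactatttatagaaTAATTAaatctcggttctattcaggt
Some members have several windows. The E-box of Lef1 and the homeodomain letters of Slc17a6 lie in the window of a later start site within the gene, and not in that of the first. Gbx2, Lef1 and Slitrk6 are among the members called lower and Prkcd and Zic1 are not, so the E-box was found on both sides. These letters describe the windows and say nothing of whether a factor binds there.

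Of the 29 members 12 were called lower in SD mice and 1 was called higher. Over all 15345 tested genes 0.88% were called lower and 2.1% higher. Those lower were the transcription factor genes Tcf7l2, Lef1, Gbx2, Shox2 and Irx2, the signalling genes Rgs16, Ramp3 and Vipr2, the synaptic genes Slc17a6 and Slitrk6, and the actin and muscle protein genes Synpo2 and Tnnt1. The gene higher was Six3. The log2 fold change was negative in 26 members and in 49.6% of all tested genes, and its median was -0.61 over the members and 0.0015 over all tested genes. Without CTR mouse 2 the median over the members was -0.21. Because the members were chosen with earlier results of these data known, the values over all genes stand beside these as description and not as a test. No member passed an adjusted p of 0.05. In edgeR the smallest Benjamini-Hochberg adjusted p of a member was 0.51. Without the cutoff on the fold change, 13 members were lower (3.68% of all tested genes) and 1 was higher (4.65%) at an unadjusted p under 0.05. In DESeq2 the smallest adjusted p of a member was 0.19, and the same cutoffs called 8 members lower (0.584% of all genes) and Six3 higher (1.47%). Of those 8, 7 were also called lower by edgeR, and the other was Irx1. The calls of Irx2, Rgs16, Ramp3, Slc17a6 and Tnnt1 were lost in DESeq2. All 3 SD mice lay below all 3 CTR mice in 5 members (6.2% of all tested genes), which were Lef1, Vipr2, Synpo2, Tnnt1 and Amotl1, and above them in 1, Six3 (6.11%).

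The members did not vary among the mice as 1 group. CTR mouse 2 was the highest mouse in 19 of the 29 members, where over all tested genes it was highest in 14.3%. It was also the lowest mouse in 5 members, Zic2, Zic4, Lhx9, Six3 and Calb2, and in 2659 of the 15345 tested genes. CTR mouse 5 was highest in 8 members, where over all genes it was highest in 17.8%. CTR mouse 1 was highest in none, where over all tested genes it was highest in 23.4%. It lay at or below the highest SD mouse in 22 members, CTR mouse 2 in 7 and CTR mouse 5 in 10. The share of all genes for these counts was not computed, so they do not show whether CTR mouse 1 was unusual in the members. Of the 12 members called lower, 10 were highest in CTR mouse 2, and Gbx2 and Irx2 were highest in CTR mouse 5. With 1 CTR mouse left out, the members called lower numbered 13 without mouse 1 (0.72% of all genes), 4 without mouse 2 (0.999%) and 10 without mouse 5 (1.35%). With 1 SD mouse left out they numbered 9 without mouse 2 (0.811%), 5 without mouse 5 (0.911%) and 5 without mouse 6 (0.567%). They numbered 0 without both CTR mice 2 and 5 (1.88%), where CTR mouse 1 alone stood for its group. That last fit was added after the values were seen, and it assumes that the lone CTR mouse varied like the SD mice. It rests on the mouse with 1.84% of its counts on ribosomal precursor RNA, against 0.164% to 0.231% in the others. Among the 12, Tcf7l2 and Shox2 were called in all 6 fits that left out 1 mouse, Vipr2 in 5, Lef1, Irx2, Slc17a6 and Synpo2 in 3 each, and Gbx2, Rgs16, Ramp3, Slitrk6 and Tnnt1 in 2 each.

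**Figure D1:**
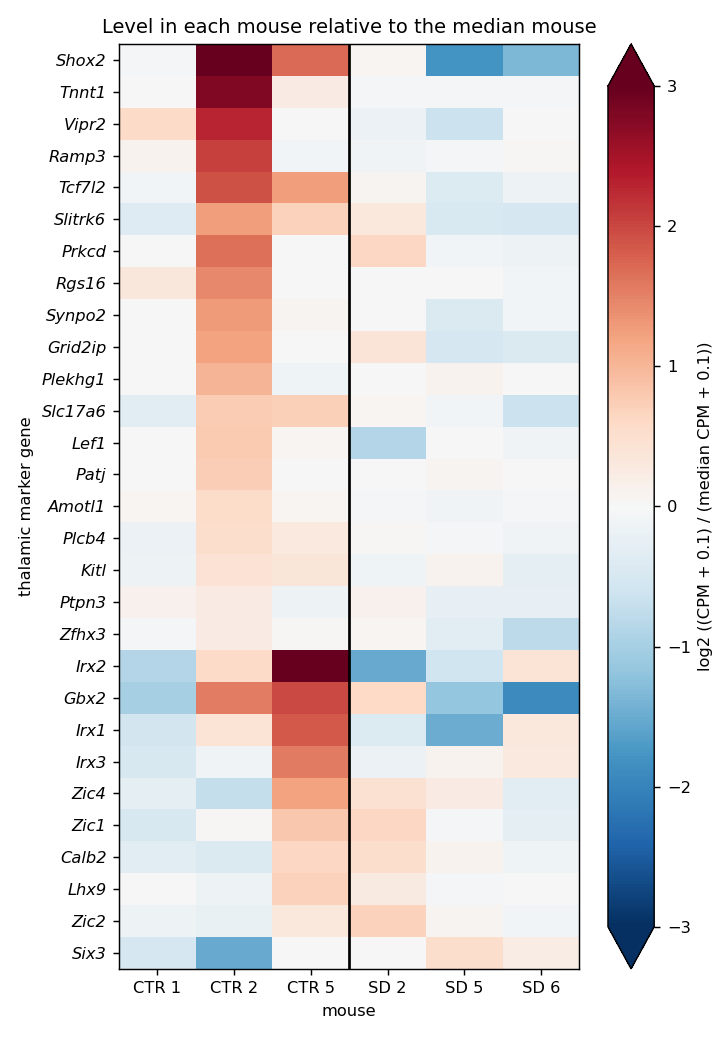
Heatmap of the 29 thalamic marker genes (rows) in the 6 mice (columns), coloured by the log2 ratio of the CPM plus 0.1 to the median CPM of the 6 mice plus 0.1. The rows from Shox2 to Zfhx3 are the 19 genes highest in CTR mouse 2, the next 8 from Irx2 to Lhx9 are highest in CTR mouse 5, and Zic2 and Six3 are highest in an SD mouse.

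Among the transcription factors, Tcf7l2 encodes the effector of Wnt signalling that defines postmitotic thalamic and habenular neurons. It lies on chromosome 19 (55741797 to 55933659, GRCm38, plus strand). Its level was 4.65, 18.8 and 12.0 CPM in CTR mice 1, 2 and 5 and 5.24, 3.69 and 4.46 CPM in SD mice 2, 5 and 6. CTR mice 2 and 5 were high, and CTR mouse 1 lay among the SD mice, so the groups overlapped. The mean was 11.8 ± 7.06 CPM (standard deviation, n = 3) in CTR and 4.46 ± 0.775 CPM in SD mice. On the log2 scale Tcf7l2 fell by 1.41 (SE 0.39, edgeR adjusted p = 0.51). With 1 mouse left out this ranged from -1.79 to -0.91, and without both CTR mice 2 and 5 it was -0.06.

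Shox2, a homeodomain factor gene of thalamic relay neurons (chromosome 3, 66971723 to 66981771, minus strand), showed the largest fold change of the 29 members. Reads on it numbered 13, 195 and 66 for CTR mice 1, 2 and 5, against 16, 3 and 6 for SD mice 2, 5 and 6. CTR mouse 2 was at 8.04 CPM, CTR mouse 5 at 2.17 CPM and CTR mouse 1 at 0.57 CPM, which is within the SD mice (0.102 to 0.621 CPM). Shox2 fell by 3.64 on the log2 scale (SE 0.90, edgeR adjusted p = 0.51), and without CTR mouse 2 the value was -2.30.

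Lef1, like Tcf7l2 a TCF/LEF factor gene of Wnt signalling (chromosome 3, 131110297 to 131224357), was the only member factor called lower whose groups did not overlap. Its level was 4.51, 7.75 and 4.70 CPM in CTR mice 1, 2 and 5 and 2.41, 4.43 and 4.17 CPM in SD mice 2, 5 and 6. CTR mouse 1 and SD mouse 5 were nearly level at the border between the groups. Lef1 fell by 0.61 on the log2 scale (SE 0.27, edgeR adjusted p = 0.59), and without CTR mouse 2 the value was -0.32 and not called.

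Gbx2, which specifies thalamic neurons early in development, was near the limit of detection, with 2, 24 and 42 counts for CTR mice 1, 2 and 5, against 12, 2 and 0 for SD mice 2, 5 and 6. The 0 of SD mouse 6 allows up to 3 counts, or 0.0868 CPM, by counting error only. CTR mice 2 and 5 were high and CTR mouse 1 was as low as SD mouse 5. Gbx2 fell by 2.37 on the log2 scale (SE 0.97, edgeR adjusted p = 0.57), a call that was lost when any of CTR mice 2 and 5 and SD mice 5 and 6 was left out.

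The Iroquois factor genes Irx1, Irx2 and Irx3 pattern the developing thalamus. Irx1 and Irx2 lie 660706 bases apart on chromosome 13, on opposite strands, and Irx3 on chromosome 8. Counts of Irx2 were 4, 16 and 122 for CTR mice 1, 2 and 5, against 2, 7 and 20 for SD mice 2, 5 and 6. Those of Irx1 were 11, 25 and 90 in CTR against 14, 6 and 33 in SD mice, and those of Irx3 were 6, 9 and 42 against 9, 13 and 18. In all 3 genes CTR mouse 5 was high, at 16.9, 5.44 and 3.72 times the median of the other 5 mice in Irx2, Irx1 and Irx3, and CTR mouse 1 was below the middle SD mouse. Irx2 fell by 2.40 on the log2 scale (SE 0.94, edgeR adjusted p = 0.56), a call that DESeq2 did not make. Irx1 had a log2 value of -1.40 (SE 0.64), which missed the cutoff on p in edgeR and passed it in DESeq2, and Irx3 one of -0.66 (SE 0.56), which was not called. Without CTR mouse 5 the log2 fold changes were -0.42, -0.39 and 0.47, and none was called.

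The Zic zinc finger genes act in midline and dorsal forebrain development. Zic1 and Zic4 lie head to head on chromosome 9, on opposite strands, and overlap by 138 bases in the RefSeq annotation. Zic1 was at 16.5, 23.6 and 40.3 CPM in CTR mice 1, 2 and 5 and at 35.2, 22.5 and 18.9 CPM in SD mice 2, 5 and 6. Zic4 was at 4.47, 3.30 and 12.8 CPM in CTR and at 7.49, 6.43 and 4.37 CPM in SD mice. Both were highest in CTR mouse 5 and next highest in SD mouse 2. Zic2, on chromosome 14, was at 14.5, 13.8 and 20.1 CPM in CTR and at 26.4, 17.1 and 15.3 CPM in SD mice, with the same pair of mice highest in the other order. The groups overlapped in all 3 genes, and the log2 fold changes of Zic1, Zic2 and Zic4 were -0.08 (SE 0.30), 0.27 (SE 0.21) and -0.19 (SE 0.43), with none called. Without CTR mouse 5 that of Zic4 turned to 0.64 and was called higher, where 3.26% of all genes were.

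Of the other 3 factors, Six3 was the only member called higher. SIX3 is a homeodomain protein of forebrain development and of some inhibitory neurons, including those of the thalamic reticular nucleus. Six3 (chromosome 17, 85613608 to 85626191) was at 1.36, 0.619 and 1.94 CPM in CTR mice 1, 2 and 5 and at 1.98, 2.88 and 2.32 CPM in SD mice 2, 5 and 6. It was lowest in the mouse in which 19 members were highest, and CTR mouse 5 and SD mouse 2 were nearly level. Six3 rose by 0.85 on the log2 scale (SE 0.35, edgeR adjusted p = 0.57), a call that was lost when any of CTR mice 1 and 2 and SD mice 5 and 6 was left out. Lhx9, a LIM homeodomain gene of early thalamic neurons, was at 14.2, 13.0 and 23.2 CPM in CTR and 17.2, 14.1 and 14.4 CPM in SD mice, high in CTR mouse 5 alone. Zfhx3, a large zinc finger homeobox gene, was at 4.95, 6.10 and 5.25 CPM in CTR and 5.28, 4.03 and 2.92 CPM in SD mice, and its log2 fold change of -0.42 (SE 0.22) was not called, except without SD mouse 2 (-0.65).

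**Figure D2:**
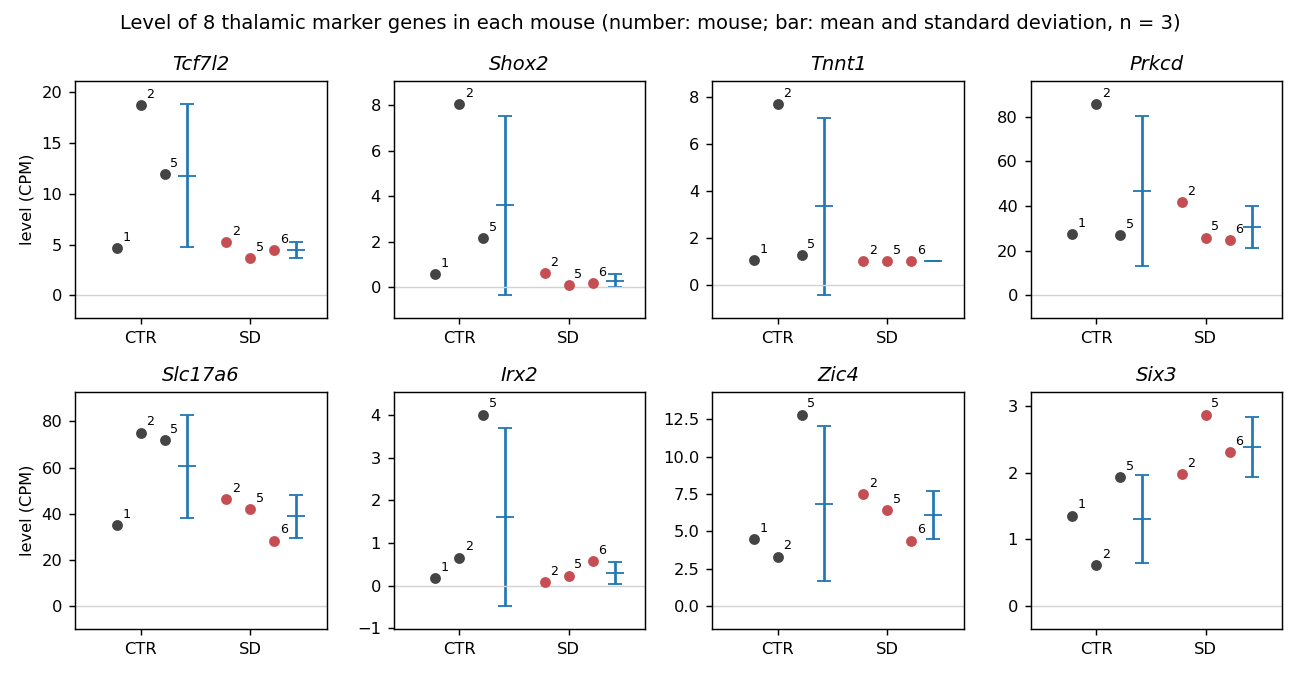
Dot plots of the level in CPM (y axis) of 8 thalamic marker genes in the CTR and SD mice, with each dot a mouse and its number beside it, and the bar the mean and standard deviation of 3 mice. CTR mouse 2 is far above the other 5 mice in Tnnt1 (7.71 CPM) and Prkcd (85.7 CPM), CTR mice 2 and 5 are both high in Tcf7l2 and Slc17a6, and CTR mouse 5 is high in Irx2 and Zic4.

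Among the signalling genes the pattern was more uniform, since all 8 were highest in CTR mouse 2. Prkcd, which encodes protein kinase C delta and is used to label thalamic relay nuclei, was at 27.4, 85.7 and 27.1 CPM in CTR mice 1, 2 and 5 and at 41.6, 25.8 and 24.6 CPM in SD mice 2, 5 and 6. CTR mouse 2 stood alone and SD mouse 2 was the next highest, while the other 2 CTR mice lay within the SD mice. Its log2 fold change of -0.61 (SE 0.40, edgeR adjusted p = 0.73) was not called. Without CTR mouse 2 it was 0.17, and without CTR mouse 5 it was -0.89 and called lower.

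Rgs16, a regulator of G protein signalling with rhythmic expression, was at 12.7, 27.5 and 10.1 CPM in CTR and at 10.1, 10.0 and 9.55 CPM in SD mice. Ramp3, an accessory protein of calcitonin family receptors, was at 5.35, 20.6 and 4.66 CPM in CTR and at 4.58, 4.80 and 5.07 CPM in SD mice. Outside CTR mouse 2 both genes were close to flat over the mice. Rgs16 fell by 0.76 (SE 0.31, edgeR adjusted p = 0.57) and Ramp3 fell by 1.08 (SE 0.48, edgeR adjusted p = 0.59) on the log2 scale, and DESeq2 called neither. Without CTR mouse 2 the values were -0.20 and -0.05 and not called. Vipr2, the receptor gene for vasoactive intestinal peptide on chromosome 12, counted 30, 110 and 26 reads in CTR against 19, 15 and 29 in SD mice. On the CPM scale its groups did not overlap, with 0.854 to 4.54 CPM in CTR and 0.508 to 0.839 CPM in SD mice, and CTR mouse 5 and SD mouse 6 were nearly level. Vipr2 fell by 1.66 on the log2 scale (SE 0.57, edgeR adjusted p = 0.55), and without CTR mouse 2 the value was -0.61 and not called.

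The other 4 signalling genes were not called. Plcb4 encodes a phospholipase C of metabotropic signalling, Kitl the KIT ligand, Ptpn3 a tyrosine phosphatase and Plekhg1 a pleckstrin homology domain protein. Plcb4 was at 35.5, 57.2 and 49.1 CPM in CTR and 41.0, 38.7 and 37.1 CPM in SD mice, and Kitl at 38.3, 58.1 and 54.9 CPM and 39.4, 46.1 and 35.4 CPM, both with CTR mice 2 and 5 high and CTR mouse 1 near or below the SD mice. Plekhg1 was at 29.8, 60.5 and 27.3 CPM in CTR and 29.5 to 32.0 CPM in SD mice, so only CTR mouse 2 was apart. Ptpn3 ranged from 76.9 to 101 CPM in CTR and from 71.7 to 93.4 CPM in SD mice. The log2 fold changes were -0.28, -0.32, -0.36 and -0.19 in Plcb4, Kitl, Plekhg1 and Ptpn3, below the cutoff on the fold change.

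Slc17a6, the gene of the vesicular glutamate transporter VGLUT2 on chromosome 7, was at 35.0, 75.2 and 71.8 CPM in CTR mice 1, 2 and 5 and at 46.3, 41.9 and 28.3 CPM in SD mice 2, 5 and 6. CTR mice 2 and 5 were high and nearly equal, and CTR mouse 1 lay within the SD mice. Slc17a6 fell by 0.65 on the log2 scale (SE 0.26, edgeR adjusted p = 0.57). DESeq2 did not call it, and in edgeR the call was lost without CTR mouse 2 (-0.47), without CTR mouse 5 or without SD mouse 6. Slitrk6, a membrane protein of neurite growth, was likewise high in CTR mice 2 and 5, with 44, 150 and 128 counts in CTR and 82, 54 and 61 in SD mice, and fell by 0.88 on the log2 scale (SE 0.38, edgeR adjusted p = 0.59). Grid2ip, a scaffold of the delta glutamate receptor, with 35, 89 and 46 counts in CTR and 52, 31 and 38 in SD mice, was not called (-0.70, SE 0.40). Without CTR mouse 2 its value was -0.15, and it was called lower without CTR mouse 5 (-0.93) and without SD mouse 2 (-1.05). Calb2 encodes the calcium-binding protein calretinin, which marks midline thalamic neurons and also hippocampal interneurons. It was at 39.0, 35.7 and 74.9 CPM in CTR and 70.3, 52.5 and 44.4 CPM in SD mice, with the same 2 mice highest as in Zic4, and its log2 fold change was 0.15 (SE 0.26).

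All 4 cytoskeletal and junction genes were highest in CTR mouse 2. Tnnt1, the slow muscle troponin T gene used to label thalamic neurons, was at 1.05, 7.71 and 1.25 CPM in CTR mice 1, 2 and 5 and at 1.01, 1.02 and 1.01 CPM in SD mice 2, 5 and 6. It was 7.60 times the median of the other mice in CTR mouse 2 and nearly equal in all others, and the groups did not overlap only by that small margin. Tnnt1 fell by 1.71 on the log2 scale (SE 0.67, edgeR adjusted p = 0.56), DESeq2 did not call it, and without CTR mouse 2 the value was -0.19. Synpo2, an actin-binding protein gene, was at 5.92, 14.4 and 6.17 CPM in CTR and 5.78, 4.33 and 5.56 CPM in SD mice. It fell by 0.75 on the log2 scale (SE 0.31, edgeR adjusted p = 0.58), and without CTR mouse 2 the value was -0.21 and not called. Amotl1 and Patj encode scaffolds of cell junctions. Amotl1 was at 42.8, 60.2 and 42.9 CPM in CTR and between 38.5 and 39.8 CPM in SD mice, and its log2 fold change of -0.31 (SE 0.13) passed the cutoff on p but not that on the fold change. Patj was at 9.29, 15.8 and 9.33 CPM in CTR and between 9.35 and 10.0 CPM in SD mice.

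**Figure D3:**
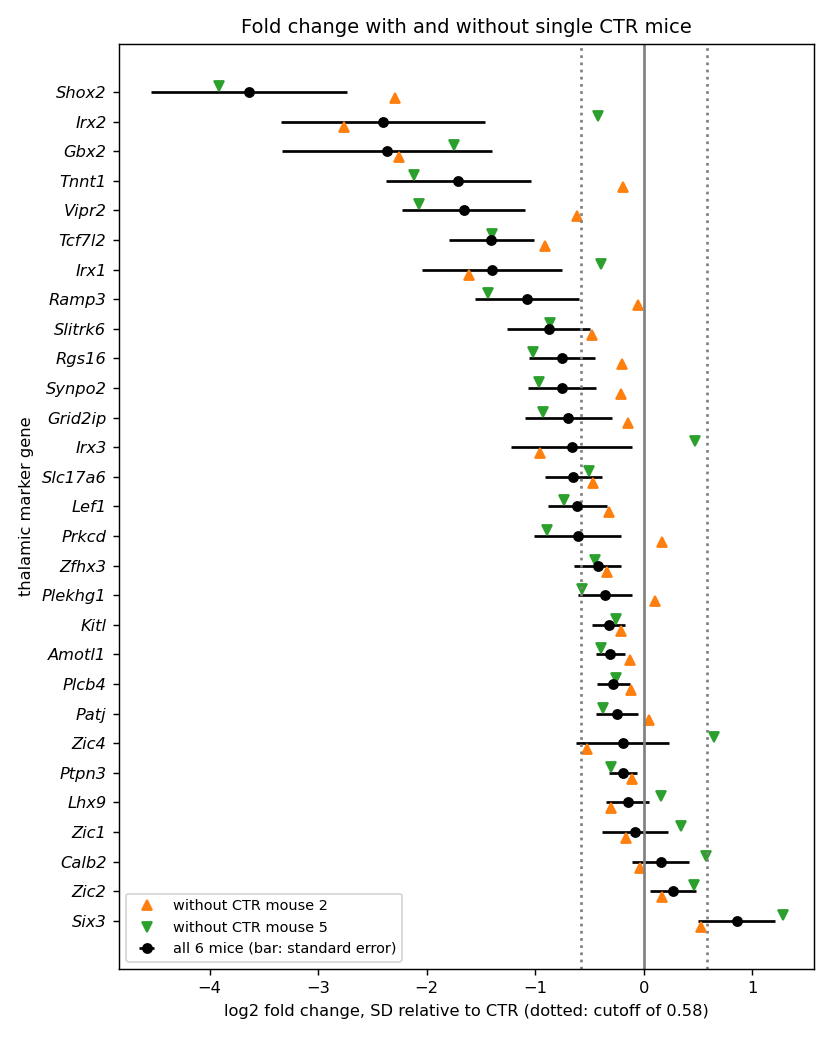
Log2 fold change of SD relative to CTR (x axis) of the 29 thalamic marker genes (y axis), with black dots and standard error bars for all 6 mice, upward triangles for the fit without CTR mouse 2 and downward triangles for the fit without CTR mouse 5. The triangles without CTR mouse 2 come close to 0 in Tnnt1 (-0.19) and Ramp3 (-0.05), and those without CTR mouse 5 do so or cross it in Irx2 (-0.42) and Zic4 (0.64).

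Levels of different members were compared per kilobase of exon in GENCODE M21. Calb2 was the most abundant in both groups, at a mean of 28.6 CPM per kilobase in CTR and 32.0 in SD mice. Slc17a6 followed in CTR mice with 14.7 CPM per kilobase, then Prkcd with 14.5 and Ptpn3 with 14.2, and these 3 neighbours did not differ beyond their spread between mice. The lowest in CTR mice were Six3 and Irx3, both at 0.24 CPM per kilobase. Between the groups Shox2 moved from rank 19 to rank 28 of 29, and Six3 from 29 to 20. With a filter on a mean of at least 50 counts 22 members were tested, and 6 of them were called lower (0.48% of all genes). That filter removed Shox2, Gbx2, Irx2 and Vipr2, and Lef1 and Ramp3 were tested and not called.

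A list of 9 further thalamic genes, none a member, was written with earlier results of these data known. Of the 9, 2 were called lower and none higher, and 5 had an unadjusted p under 0.05. Rora, a nuclear receptor gene of thalamic neurons and of the clock, was at 73.4, 120 and 68.1 CPM in CTR and 55.8, 58.6 and 50.2 CPM in SD mice, and Foxp2, a forkhead factor gene linked to speech, at 3.24, 7.47 and 5.32 CPM and 4.04, 3.15 and 2.40 CPM. Both were highest in CTR mouse 2, as were 7 of the 9 genes, and on the log2 scale Rora fell by 0.67 (SE 0.18) and Foxp2 fell by 0.75 (SE 0.30). In DESeq2 the adjusted p of Rora was 0.038. The median over the 9 genes was -0.50. All 3 SD mice lay below all 3 CTR mice in 4 of the 9 (6.2% of all tested genes) and above them in 0. The list summed to 470, 609 and 451 CPM in CTR mice 1, 2 and 5. In SD mice 2, 5 and 6 it summed to 380, 424 and 383 CPM, so these sums did not overlap. Nor did those of the neocortical list, lower in SD mice, and of the hypothalamic list, higher in SD mice, both given below. Without CTR mouse 2, 1 of the 9 was called lower, and without both CTR mice 2 and 5 none was.

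Of 15 tested genes of the Wnt/beta-catenin pathway in which Tcf7l2 and Lef1 act, none was called lower and 1 was called higher, Sfrp1, which encodes a secreted Wnt inhibitor. Sfrp1 was at 9.47, 7.26 and 9.92 CPM in CTR and 7.92, 15.8 and 16.1 CPM in SD mice, which put it at the cutoff of 0.58, and it was not called by DESeq2. The median of this list was 0.02. Besides Sfrp1, 2 genes of the list passed the cutoff on p and not that on the fold change. Notum, which encodes a secreted Wnt deacylase, was at -0.53 on the log2 scale, and Dkk3, of the Dickkopf family, at -0.22. In these 2 of the 15 genes all SD mice lay below all CTR mice (6.2% of all tested genes). In 1 gene, Ctnnb1, which encodes beta-catenin, all SD mice lay above all CTR mice (6.11%). Ctnnb1 was at 634 to 647 CPM in CTR and 692 to 711 CPM in SD mice and was not called. The list summed to between 1800 and 1842 CPM in CTR and between 1799 and 1845 CPM in SD mice.

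Genes of regions next to the hippocampus were measured beside the members in the same mice. The 9 tested genes of the medial habenula were all highest in CTR mouse 5, which also held the highest Irx, Zic1, Zic4, Lhx9 and Calb2 levels. They summed to 84.7 to 224 CPM in CTR and 81.7 to 97.0 CPM in SD mice. Gpr151, a habenular receptor gene, stood at 498 counts in CTR mouse 5 and between 11 and 80 in each other mouse. Of this list 1 gene was called lower, Lrrc55, and 3 listed genes, the defining markers Pou4f1 and Chat and the peptide gene Kiss1, were not tested. Leaving out CTR mouse 1 gave 5 called lower and leaving out CTR mouse 2 gave 6, while without CTR mouse 5 there were 0 lower and 3 higher. The 9 tested hypothalamic genes summed to 6.10 to 11.7 CPM in CTR mice, with mouse 2 the lowest. In SD mice they summed to 14.9 to 42.0 CPM, with mouse 2 the highest, so these sums did not overlap. Of these genes 6 were called higher and none lower. Another 11 listed genes were not tested, among them the defining peptide genes Avp, Oxt, Hcrt and Pmch. The 16 choroid plexus genes summed to 435 CPM in CTR mouse 2, to 2837 and 4750 CPM in CTR mice 1 and 5, and to 4075 to 11425 CPM in SD mice, with 15 called higher by edgeR and 7 by DESeq2. CTR mouse 2 was thus the highest mouse in the sums of thalamic genes and the lowest in the sums of choroid plexus and hypothalamic genes. The part of these differences in the fold changes of the members was not tested.

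**Figure D4:**
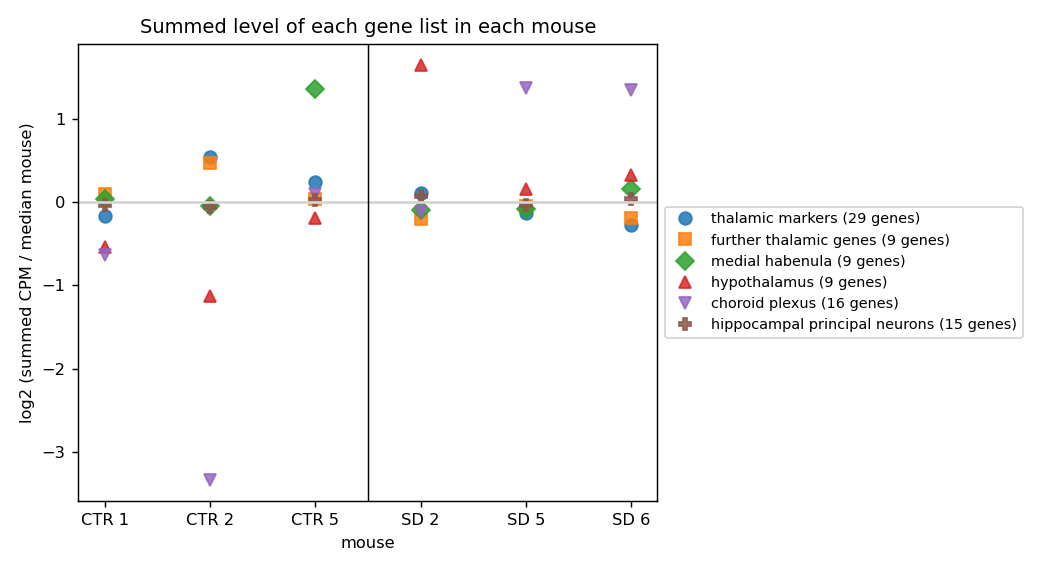
Summed CPM of 6 gene lists in each mouse (x axis), as the log2 ratio to the median of the 6 mice (y axis), with the number of genes of each list in the legend. The thalamic markers and the further thalamic genes are highest in CTR mouse 2 (732 and 609 CPM), the medial habenula genes in CTR mouse 5 (224 CPM), and the hippocampal principal neuron genes stay between 1268 and 1394 CPM.

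Further lists covered other cells that the dissection holds or could hold. Of 11 neocortical genes 1 was called lower, and of 8 striatal, 9 GABAergic and 10 endothelial genes none was called. The neocortical genes summed to 636 to 705 CPM in CTR and 534 to 612 CPM in SD mice, so these sums did not overlap. Of 12 leptomeningeal genes 2 were called lower and 1 higher, and of 10 oligodendrocyte genes 1 was called higher, with 8 at an unadjusted p under 0.05. The summed level of the 29 members was 447, 732 and 595 CPM in CTR mice 1, 2 and 5 and 542, 457 and 414 CPM in SD mice 2, 5 and 6. CTR mouse 1 had a lower sum than SD mice 2 and 5, so the groups overlapped. Abundant members weigh most in this sum, among them Ptpn3, Calb2 and Zic1, which were not called. These were at 93.2, 39.0 and 16.5 CPM in CTR mouse 1 and at 93.4, 70.3 and 35.2 CPM in SD mouse 2.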

How the data were processed

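Polyadenylated RNA of 6 mice was sequenced on an Illumina instrument. Before deposit the authors used Trim Galore for trimming, Hisat2 for alignment to mm10 and featureCounts for gene counting, in which strand was respected and multi-mapping reads were kept. SAMtools and Picard stand in the processing notes too. Versions and annotation were not stated in the sources used here. The deposited table holds whole-number counts, with at least 40 counts per gene over the 6 mice, beside the authors' DESeq2 comparison, which was not used.

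Counts were tested here with R 4.3.3 and edgeR 4.0.16 (filterByExpr, TMM, estimateDisp, glmQLFit, glmQLFTest), SD against CTR, all 6 mice and no covariate. The filter kept 15345 genes and removed 78. The standard error (SE) of a log2 fold change was its size over the root of the F statistic. All 30 members were named by rule, and of other lists the called genes that the text needs. Notum, Dkk3, Ctnnb1 and Gpr151 were chosen after their values were seen. The members and lists were chosen with earlier results of these data known. The lists were hippocampal, neocortical, striatal, GABAergic, hypothalamic, habenular, further thalamic, Wnt/beta-catenin, choroid plexus, leptomeningeal, endothelial and oligodendrocyte genes. The test was also run on simulated data, whose outcome is not reported here. Alternatives were DESeq2 1.42.0, its size factors, other filters and thresholds, each mouse left out, and the mouse number as a block. Intervals at 0 cover counting error only. Coordinates and promoter sequences are from RefSeq (GRCm38.p6, the build mm10), and exon lengths from GENCODE M21.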

Additional observations from a re-analysis of the deposited data

How the results depend on the processing

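The direction of the members as a list held in every fit that left out at most 1 mouse, with a median log2 fold change of -0.88 (without CTR mouse 1) to -0.21 (without CTR mouse 2), and it was 0.069 without both CTR mice 2 and 5, a fit chosen after seeing the data. In the same fits the members called lower numbered 0 to 13 and those called higher 0 to 2, all genes called lower 87 to 290 and higher 155 to 500, and genes of the other lists called lower 2 to 11 and higher 10 to 30. With a mean count of at least 50, 6 members were called lower and the median was -0.34, with 64 genes lower and 201 higher in all, where fewer genes were tested. At an unadjusted p of at most 0.05 without a fold cutoff, 564 genes were lower and 713 higher, and 14 list genes were lower. At an adjusted p under 0.05, 0 members, 0 list genes and 0 genes in all were called in either direction by edgeR, against 1277 genes at an unadjusted p under 0.05 in edgeR and 56 at an adjusted p under 0.05 in DESeq2. DESeq2 called 14 list genes higher, where edgeR called 24, and the cause was not tested. DESeq2 size factors in edgeR and no filter left all 29 members on their side of the cutoffs.

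The mice numbered 2 and 5 occur in both groups, but only 2 numbers are shared and nothing in the labels pairs them. With the number as a replicate block, CTR mouse 1 and SD mouse 6 each had a block of their own and added nothing to the contrast. That fit therefore rested on the mice numbered 2 and 5, and left out the CTR mouse that often lay among the SD mice. In it 12 members were called lower, 11 of them also lower without the block, and 1 was called higher. Lef1 lost its call and Irx1 gained one. With the block 76 genes were lower in all, and the log2 fold change of Zic4 was 0.0096. The deviations of same-numbered mice correlated across genes at 0.21 for number 2 and 0.12 for number 5, and those of CTR mouse 1 and SD mouse 6, which share no number, at 0.12.

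Signs turned with mice left out in members that were not called. Without 1 mouse or without both CTR mice 2 and 5, the log2 fold change ranged from -0.89 to 0.17 for Prkcd, -0.57 to 0.10 for Plekhg1, -0.046 to 0.57 for Calb2, -0.38 to 0.050 for Patj, -1.02 to 0.74 for Irx3, -0.38 to 0.62 for Zic1, -0.53 to 0.64 for Zic4, -0.30 to 0.16 for Lhx9, -0.00055 to 0.46 for Zic2, -2.05 to 0.26 for Irx1, -0.45 to 0.13 for Plcb4 and -0.49 to 0.07 for Kitl. Among called members the positive end came without both CTR mice 2 and 5, with -4.57 to 0.83 for Gbx2, -3.33 to 0.83 for Irx2, -0.93 to 0.14 for Slc17a6 and -1.21 to 0.21 for Slitrk6. Depth limits Gbx2, Irx1, Irx2, Irx3 and Shox2, which had under 20 counts in at least 1 mouse of each group.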
